A study of Mus musculus with 9 samples.

Results

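The Ly6 family genes *Ly6a2*, *Ly6c1*, *Ly6c2*, *Ly6e*, *Ly6i*, *Ly6d*, *Ly6h* and *Ly6k* were followed in whole lung of 3 mouse strains, with *Ly6a* as a 9th named member. A member was taken as the probeset that carries its symbol in the annotation of the Affymetrix Gene 2.0 ST array, and where a symbol had several probesets, the one with the highest mean over all 9 arrays was used. In this way 8 of the 9 named genes were measured, through 9 of the 41345 probesets, since *Ly6k* has a pair of them. No probeset was named *Ly6a* in the annotation used, so that gene was not analysed here. The family was chosen by the measured difference of *Ly6a2* from C57BL/6J, already known from these arrays, so what the fit gives for that gene against C57BL/6J, its calls and intervals included, only describes these arrays and supports nothing. Naïve, untreated adult mice were used, and each strain gave 3 mice with an array for each mouse. C57BL/6J is the hyporesponsive strain, whose airways constrict little after inhaled methacholine, and BcA86 and CSS12 are the hyperresponsive strains. BcA86 is a recombinant congenic strain that is mostly C57BL/6J with inherited segments of A/J, among them parts of Chromosome 15, where the Ly6 cluster lies. Whether the cluster itself is of A/J origin in BcA86 cannot be told from the sources used here. CSS12 is a substitution strain with Chromosome 12 of A/J on a C57BL/6J background, so its Chromosome 15 is nominally that of C57BL/6J. The study used these strains to look for genes of airway hyperresponsiveness. The sources do not say which sex each mouse had, and the number of arrays limits the precision.

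Ly6 proteins are small surface proteins built around a compact domain held together by disulphide bonds, and most are tied to the outer membrane by a glycosylphosphatidylinositol (GPI) anchor instead of a membrane-spanning segment. Many are used as markers of cell types in the mouse. *Ly6a* encodes Sca-1, a marker of stem and progenitor cells that endothelium and activated lymphocytes also carry, *Ly6c1* and *Ly6c2* encode Ly6C of monocytes and endothelium, and *Ly6g* encodes the neutrophil antigen Ly6G. Several members, *Ly6a* and *Ly6e* above all, are induced by interferons.

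The members lie side by side on Chromosome 15, and some are close copies of each other. In RefSeq the stretch from *Ly6d* to *Ly6h* holds 37 genes, 22 of them protein coding, in the order *Ly6d*, *Ly6k*, *Ly6e*, *Ly6i*, *Ly6a*, *Ly6c1*, *Ly6c2*, *Ly6a2* and *Ly6h*. Promoter windows of 300 bases, running from 250 bases before the start of transcription to 50 after it, were at hand for 3 of the members, *Ly6c1*, *Ly6c2* and *Ly6a2*. The windows of *Ly6c2* and *Ly6a2* are shown because they are nearly the same sequence. They come from RefSeq for the C57BL/6J reference genome (build GRCm38.p6), both on the minus strand, at chr15:75111972-75112221 for *Ly6c2* and chr15:75135129-75135378 for *Ly6a2*. Each line gives the 250 bases before the start, with bases that differ from the other gene or have no partner in the alignment in capitals.
Ly6c2: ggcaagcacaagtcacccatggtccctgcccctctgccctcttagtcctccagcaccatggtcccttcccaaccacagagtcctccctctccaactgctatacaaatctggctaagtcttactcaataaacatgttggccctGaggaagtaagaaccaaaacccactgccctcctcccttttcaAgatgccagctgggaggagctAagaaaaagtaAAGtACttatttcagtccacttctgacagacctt
Ly6a2: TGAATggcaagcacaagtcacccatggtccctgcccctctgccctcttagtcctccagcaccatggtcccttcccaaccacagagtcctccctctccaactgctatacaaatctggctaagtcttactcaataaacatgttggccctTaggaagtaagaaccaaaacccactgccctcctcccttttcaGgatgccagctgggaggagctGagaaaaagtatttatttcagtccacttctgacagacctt
Over the whole windows, 291 of 305 alignment columns matched, an identity of 95.4%, with 4 mismatches and 5 bases on each side without a partner. The first windows of *Ly6c1* and *Ly6a2* matched at 63.9%. The gamma activated site TTCNNNGAA and the letters GAAANNGAA, most of the core of the interferon stimulated response element, were searched on both strands without allowing mismatches. TTCNNNGAA was found in 8.3% and GAAANNGAA in 8.56% of 32851 RefSeq promoter windows of the same length, and neither was found in the 5 windows of these members. The sequence of A/J or BcA86 at these positions was not analysed here.

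The deposited values are log2 expression, so a difference of 1 stands for a doubling. Array medians lay between 6.08 and 6.13, and 12 lung tissue markers had a mean level between 11.55 and 11.67 on all 9 arrays. CSS12 replicate 2 stood apart from the other arrays. Of 22180 genes, 44 were at least 1 above every other array there, against 0 to 5 genes in each of the other arrays. *Ly6i* was 9th among these 44 by the size of its gap. The *Ly6i* differences of CSS12 are therefore also given without that array.

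Strain differences were tested with limma in a single fit, and a gene passed at an adjusted p under 0.05 over all probesets. In BcA86 against C57BL/6J, *Ly6d* passed beside *Ly6a2*, 2 of 8 members, both lower, where 0.375% of all probesets passed. In CSS12 against C57BL/6J, 0.22% of all probesets passed, and no member did beside *Ly6a2*. Of the other 7, *Ly6d* and *Ly6c1* had an unadjusted p under 0.05 there, as did 10.7% of all probesets. With the mean of the hyperresponsive strains set against C57BL/6J, *Ly6d* again passed beside *Ly6a2*, 2 of 8, where 0.302% of all probesets did. Between CSS12 and BcA86, *Ly6a2* passed, 1 of 8, higher in CSS12, where 0.716% of all probesets did. The place of *Ly6a2* in the counts against C57BL/6J was fixed by the choice of the family, and these comparisons share the C57BL/6J arrays. Its difference between CSS12 and BcA86 comes from the same BcA86 and CSS12 arrays, so that call is not independent of the choice either. The other members were also named with earlier results of these arrays known. The shares of members, here and below, therefore do not test whether the family stands out from all probesets. Over the 8 members, the median log2 fold change against C57BL/6J was −0.28 for BcA86 and −0.13 for CSS12, and it was 0.46 between CSS12 and BcA86, while over all probesets it lay between 0.00 and 0.01.

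Arrays of a strain pair that do not overlap are common in this design. The 3 BcA86 and the 3 C57BL/6J arrays did not overlap for 3 of 8 members, *Ly6a2*, *Ly6d* and *Ly6e*, against 14.4% of all probesets. For CSS12 and C57BL/6J they did not overlap for 3 of 8, *Ly6a2*, *Ly6d* and *Ly6c1*, against 15% of all probesets. For CSS12 and BcA86 they did not overlap for 5 of 8, *Ly6a2*, *Ly6d*, *Ly6c1*, *Ly6c2* and *Ly6e*, against 17.7% of all probesets. Cyber-T, the test named in the study's methods, passed more members and more of everything. It passed 3 of 8 members in BcA86, adding *Ly6i*, where 2.33% of all probesets passed, and 3 of 8 in CSS12, adding *Ly6d* and *Ly6c1*, where 2.36% passed. Between CSS12 and BcA86 it passed 6 of 8, all but *Ly6h* and *Ly6k*, where 5.1% of all probesets passed. For the hyperresponsive strains together it passed *Ly6a2* and *Ly6d* alone, where 0.936% passed.

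**Figure D1:**
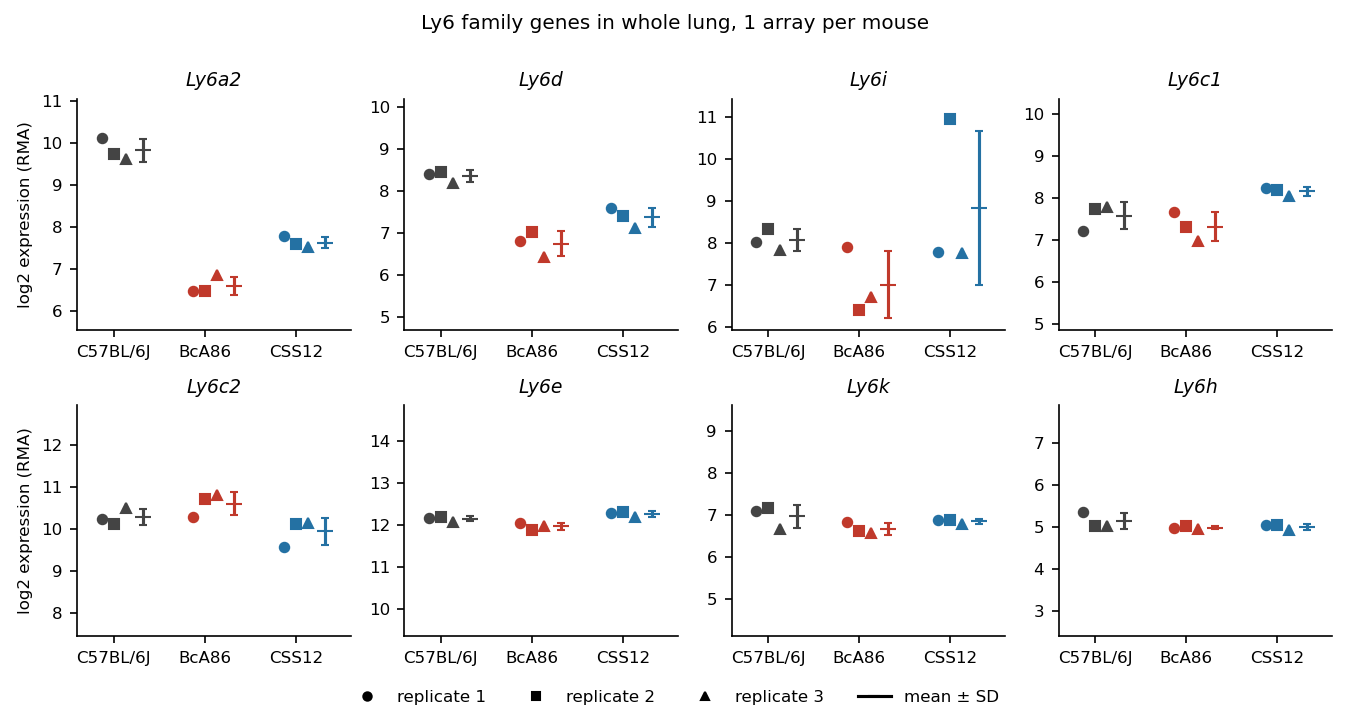
Log2 expression (vertical axis) of the 8 measured Ly6 members in each mouse, by strain, with symbols for the replicate and a bar for the mean ± SD of 3 mice. Every panel spans the same height, so distances can be compared between panels, and the strains are fully separated for *Ly6a2* and *Ly6d* while 1 CSS12 array stands at 10.95 for *Ly6i*.

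*Ly6a2*, a member named after the Sca-1 gene *Ly6a*, was far lower in both hyperresponsive strains (probeset 17318105). The C57BL/6J arrays read 10.12, 9.72 and 9.61, a mean of 9.82 ± 0.27 (SD, n = 3). The BcA86 arrays read 6.48, 6.46 and 6.84, a mean of 6.59 ± 0.22. The CSS12 arrays read 7.77, 7.58 and 7.52, a mean of 7.62 ± 0.13. Every C57BL/6J array lay above every CSS12 array, and every CSS12 array above every BcA86 array. *Ly6a2* was thus 9.34-fold lower in BcA86 than in C57BL/6J, a log2 fold change of −3.22 with a 95% interval from −3.59 to −2.86. In CSS12 it was 4.58-fold lower, −2.19 with an interval from −2.56 to −1.83. The hyperresponsive strains also differed from each other, by 1.03 on the log2 scale (standard error 0.16, interval 0.67 to 1.39, adjusted p = 0.0353 from limma), which makes *Ly6a2* 2.04-fold higher in CSS12 than in BcA86. That call between CSS12 and BcA86 was lost in 7 of the 9 fits with 1 array left out, in which the adjusted p ran from 0.0281 to 0.126 and the difference from 0.95 to 1.15. It was also lost in a fit of CSS12 and BcA86 alone (adjusted p = 0.0694). The fold changes against C57BL/6J moved little when an array was left out, between −3.35 and −3.07 in BcA86 and between −2.30 and −2.04 in CSS12.

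*Ly6d*, known in the mouse as a marker of early B lineage cells and of keratinocytes, followed the same order of strains over a smaller span (probeset 17318020). The C57BL/6J arrays read 8.41, 8.45 and 8.19, a mean of 8.35 ± 0.14 (SD, n = 3). The BcA86 arrays read 6.80, 7.02 and 6.43, a mean of 6.75 ± 0.30. The CSS12 arrays read 7.59, 7.40 and 7.13, a mean of 7.37 ± 0.23. As for *Ly6a2*, none of the 3 strains overlapped with another. *Ly6d* was 3.03-fold lower in BcA86 than in C57BL/6J, a log2 fold change of −1.60 (standard error 0.17, adjusted p = 0.00885 from limma), and this call held with each array left out, at an adjusted p between 0.0174 and 0.0492. In CSS12 it was 1.97-fold lower, −0.98 (standard error 0.17, interval −1.37 to −0.59, adjusted p = 0.0933), which did not pass. It passed there when the dimmer probesets were left out (adjusted p = 0.0385). Between CSS12 and BcA86 the difference was 0.62 (interval 0.23 to 1.01, adjusted p = 0.164). For the hyperresponsive strains together the log2 fold change was −1.29 (standard error 0.15, adjusted p = 0.0174). That call was lost in 5 of 9 fits with an array left out, the highest adjusted p being 0.0832 without C57BL/6J replicate 2.

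Cells that carry *Ly6d* were looked at through marker lists. In whole lung, fewer cells of a type and less RNA per cell cannot be told apart. Of 12 measured B cell markers, none passed in any comparison with limma. The B cell list's mean level lay between 7.64 and 8.14 in C57BL/6J, 7.74 and 8.07 in BcA86 and 7.14 and 7.57 in CSS12. It was lowest in CSS12 and overlapped between C57BL/6J and BcA86. The list's median log2 fold change was 0.04 for BcA86 and −0.47 for CSS12. At an unadjusted p under 0.05, 1 of the 12 was lower in BcA86, against 10.4% of all probesets, and 9 were lower in CSS12, against 10.7%. Cyber-T passed 1 and 4 of them as lower, against 2.33% and 2.36% of all probesets. Between CSS12 and BcA86 the list's median was −0.52. There 8 of the 12 were lower in CSS12 at an unadjusted p under 0.05, against 11.9% of all probesets. Cyber-T passed 8 as lower there, against 5.1%. The squamous and basal epithelium list, 13 measured markers of the keratinocyte kind, had a mean level between 5.66 and 5.74 on all arrays. This lies below the array medians, so a fall could hardly show. With limma or Cyber-T 0 passed in any comparison. At an unadjusted p under 0.05, 1 was lower in BcA86, against 10.4% of all probesets. In CSS12 2 were higher and 1 lower, against 10.7%, and for both strains together 1 was lower, against 9.7%. Between CSS12 and BcA86 1 was higher, against 11.9%. What B cells or epithelial cells contribute to the *Ly6d* differences between the strains was not tested.

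*Ly6c1* and *Ly6c2*, the closely related genes of the Ly6C antigen, moved in opposite directions between the hyperresponsive strains. *Ly6c1* (probeset 17318089) read 7.21, 7.73 and 7.79 in C57BL/6J, 7.67, 7.31 and 6.97 in BcA86, and 8.24, 8.19 and 8.04 in CSS12. The CSS12 arrays lay above all others, while C57BL/6J and BcA86 overlapped. *Ly6c1* differed by 0.84 between CSS12 and BcA86 (interval 0.37 to 1.31, adjusted p = 0.114 from limma), by 0.58 between CSS12 and C57BL/6J (interval 0.12 to 1.05, adjusted p = 0.371) and by −0.26 in BcA86 against C57BL/6J (interval −0.72 to 0.21). None of these passed with limma, and with Cyber-T both differences of CSS12 did, at adjusted p-values of 0.000199 and 0.0221.

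*Ly6c2* (probeset 17318100) read 10.23, 10.12 and 10.49 in C57BL/6J, 10.28, 10.70 and 10.80 in BcA86, and 9.57, 10.10 and 10.13 in CSS12. BcA86 lay above CSS12 without overlap, and C57BL/6J overlapped with both. The difference between CSS12 and BcA86 was −0.66 (interval −1.10 to −0.22, adjusted p = 0.187 from limma and 0.000738 from Cyber-T). Against C57BL/6J it was 0.32 in BcA86 (interval −0.12 to 0.75) and −0.35 in CSS12 (interval −0.79 to 0.09). The promoter window of *Ly6c2* is nearly that of *Ly6a2* in the C57BL/6J reference, and what these windows contribute to the values of either gene was not tested. Since the family holds close copies, whether a probeset also takes up transcripts of a neighbouring copy was not tested for *Ly6c1*, *Ly6c2* and *Ly6a2*, and their levels are uncertain in that respect.

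Monocytes and endothelium carry Ly6C, so their markers were set beside these values. Of 19 monocyte and macrophage markers and 18 endothelial markers, 0 passed with limma in any comparison. At an unadjusted p under 0.05 for the hyperresponsive strains together, 5 monocyte and macrophage markers were lower and 1 higher, and 6 endothelial markers were higher and 0 lower, against 9.7% of all probesets. Cyber-T passed 3 of the former as lower and 0 of the latter, against 0.936% of all probesets. Between CSS12 and BcA86, where *Ly6c1* and *Ly6c2* differed most, 4 monocyte and macrophage markers were higher and 2 lower at that level, and Cyber-T passed the same numbers, against 11.9% of all probesets at that level and 5.1% with Cyber-T. Of the endothelial markers 4 were lower and 0 higher, and Cyber-T passed 0. The mean level of the monocyte and macrophage list was 9.06 to 9.25 in C57BL/6J, 8.95 to 8.97 in BcA86 and 8.85 to 9.21 in CSS12. The 9.21 was CSS12 replicate 2, the array that stood apart, and replicates 1 and 3 read 8.93 and 8.85, below every BcA86 array. The markers were not counted without that array. For the hyperresponsive strains together the median of this list was −0.15, and the genes named next are those of the list that changed most. *Nr4a1*, a transcription factor that patrolling monocytes need, had −1.39 (standard error 0.27, adjusted p = 0.115 from limma). *Plac8*, expressed in monocytes and other leukocytes, had −0.50 (adjusted p = 0.25). The endothelial list read 10.88 to 10.99 in C57BL/6J, 11.01 to 11.12 in BcA86 and 11.04 to 11.06 in CSS12, led by *Gpihbp1* at 0.30 and the endothelial transcription factor *Sox17* at 0.29 for the hyperresponsive strains together. The part of these cells in the *Ly6c1* and *Ly6c2* values was not tested.

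*Ly6e*, an interferon-inducible member known for restricting coronavirus entry, differed little between strains (probeset 17312209). It read 12.17, 12.19 and 12.08 in C57BL/6J, 12.04, 11.89 and 11.97 in BcA86, and 12.29, 12.31 and 12.18 in CSS12. BcA86 lay below both other strains without overlap, and the spread within strains was small, with SDs of 0.06, 0.08 and 0.07. The difference between CSS12 and BcA86 was 0.30 (interval 0.14 to 0.45, adjusted p = 0.0987 from limma), a 1.23-fold difference, and it passed with trended and robust variances (adjusted p = 0.0436) and with the dimmer probesets left out (adjusted p = 0.0407). Against C57BL/6J it was −0.18 in BcA86 (interval −0.34 to −0.03, adjusted p = 0.411) and 0.11 in CSS12 (interval −0.04 to 0.27).

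*Ly6i*, a member related to Ly6C that myeloid cells express, was the most scattered (probeset 17318076). It read 8.03, 8.34 and 7.83 in C57BL/6J and 7.91, 6.41 and 6.71 in BcA86. In CSS12 it read 7.80, 10.95 and 7.77, so replicate 2 lay 2.61 above the highest of the other 8 arrays. The means were 8.07 ± 0.26 (SD, n = 3), 7.01 ± 0.79 and 8.84 ± 1.83, and C57BL/6J overlapped with both other strains. With limma, BcA86 had a log2 fold change of −1.06 (interval −2.93 to 0.82, adjusted p = 0.697) and CSS12 one of 0.77 (interval −1.10 to 2.65, adjusted p = 0.78). Between CSS12 and BcA86 it was 1.83 (interval −0.05 to 3.70, adjusted p = 0.435). Without CSS12 replicate 2 the value in CSS12 turned to −0.28 and the difference between CSS12 and BcA86 fell to 0.77. Cyber-T passed *Ly6i* in BcA86 against C57BL/6J (adjusted p = 0.0246) and in CSS12 against BcA86 (adjusted p = 0.0453). The second call was lost without CSS12 replicate 2 (adjusted p = 0.066), in a fit added after the data were seen.

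A few of the other genes that stood apart in CSS12 replicate 2 were picked after their values were seen, and not by rank. *Fbp1*, for example, is not among them, though it read 11.08 there and at most 5.90 elsewhere. *Rnase2a*, of the eosinophil-associated ribonucleases, read 10.94 there and at most 3.60 elsewhere. *Chil4*, a chitinase-like protein of allergic airways, read 11.46 against at most 5.14, and *Clca1*, a secreted protein of mucous cells, 12.48 against 7.96. *Muc5ac*, the gel-forming airway mucin, read 9.88 against at most 6.81, *Mmp12*, the macrophage elastase, 10.61 against 7.69, and *Ccl17*, a chemokine for T helper cells, 11.69 against 9.35. Most of these picked genes are known from allergic airway inflammation, which does not describe all genes that stood apart. The mouse was labelled as naïve like the others. *Cxcl9*, a chemokine induced by interferon gamma, read 9.16 against at most 7.46. The high *Ly6i* reading thus came from the same lung as the high readings of these genes, and nothing about its origin was tested. On that array *Ly6e* read 12.31, its highest value but close to the 12.29 of replicate 1, while *Ly6c1* at 8.19 and *Ly6c2* at 10.10 lay between the other CSS12 arrays.

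**Figure D2:**
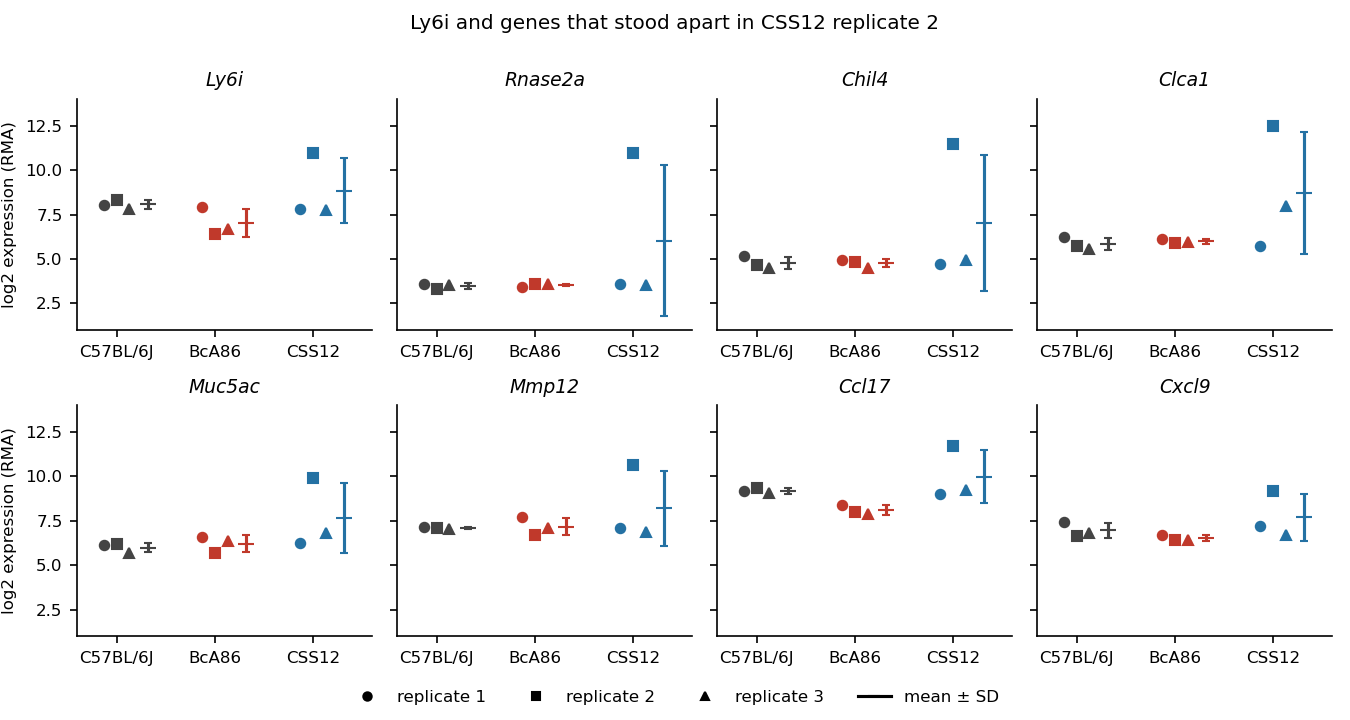
Log2 expression (shared vertical axis) of *Ly6i* and 7 other genes in each mouse by strain, with symbols for the replicate and bars for the mean ± SD of 3 mice. CSS12 replicate 2 (blue square) lies above every other array in all panels, at 10.95 for *Ly6i* and 10.94 for *Rnase2a*.

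The remaining members varied little. *Ly6k*, which is needed in the testis for sperm function, read 7.09, 7.16 and 6.66 in C57BL/6J, 6.82, 6.62 and 6.56 in BcA86, and 6.89, 6.88 and 6.78 in CSS12 (probeset 17318029). C57BL/6J overlapped with both strains, and BcA86 differed from it by −0.30 (interval −0.61 to 0.01) and CSS12 by −0.12 (interval −0.43 to 0.19). The other *Ly6k* probeset (17312196) gave 0.10 and 0.32, in the opposite direction, so no direction is given for *Ly6k*. *Ly6h*, expressed in brain, where it acts on nicotinic receptors, had a mean of 5.14 ± 0.19 (SD, n = 3) for C57BL/6J, 4.99 ± 0.04 for BcA86 and 5.01 ± 0.07 for CSS12, below the median of an array (probeset 17318123). Its highest reading was 5.37, in C57BL/6J replicate 1, and its other 8 readings lay between 4.93 and 5.05. Without that array its fold change in BcA86 shrank from −0.15 to −0.04.

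Across the 9 arrays, *Ly6a2* and *Ly6d* had a Pearson correlation of 0.95, but after the strain means were subtracted it was −0.08. The likeness of their patterns was thus seen in the order of the strains. It was not seen among mice of the same strain, where 3 mice per strain leave such a value too imprecise to tell. *Ly6c1* and *Ly6c2* were correlated at −0.79 over the arrays and at −0.44 within strains. *Ly6c2* and *Ly6e* were at −0.87 and −0.66, and *Ly6e* and *Ly6i* at 0.77 and 0.62, or 0.80 over the arrays without CSS12 replicate 2. These are descriptions over 9 points that share 3 strains, and they carry no test.

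**Figure D3:**
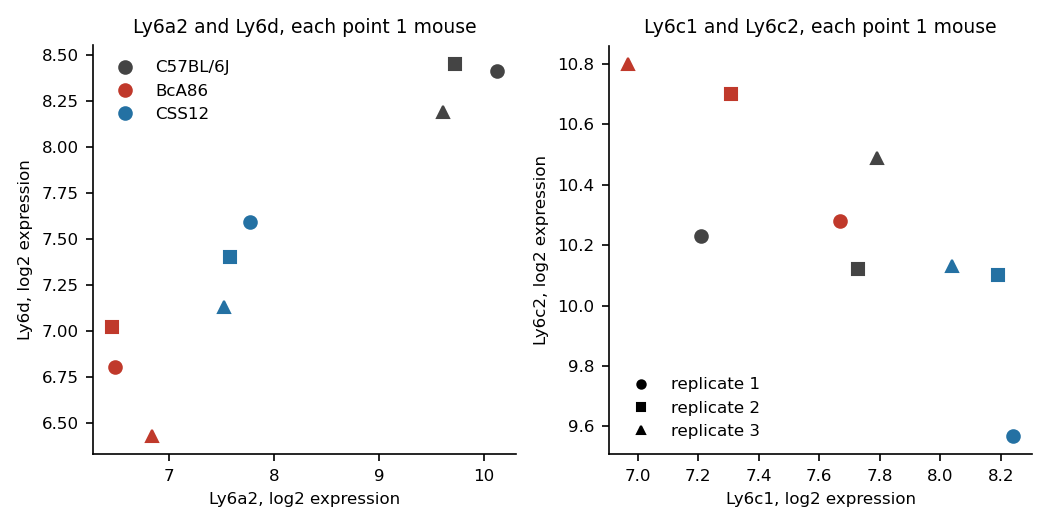
Log2 expression of *Ly6d* against *Ly6a2* (left) and of *Ly6c2* against *Ly6c1* (right), each point 1 mouse, coloured by strain and with symbols for the replicate. The strains form 3 separate groups on the left, with a correlation of 0.95 over the arrays and −0.08 within strains. On the right the 9 points fall along a descending line, at −0.79 over the arrays and −0.44 within strains.

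The genes between and beside the members were measured to see whether the differences ran along the chromosome. Of the 37 genes from *Ly6d* to *Ly6h*, 17 had a probeset, the 8 members and 9 others. With limma, 0 of these 9 passed in any of the 4 comparisons. At an unadjusted p under 0.05, 1 of them differed in each comparison with C57BL/6J, *Ly6g6g* at −0.34 in BcA86 and −0.32 in CSS12, a share near the 10.4%, 10.7% and 9.7% of all probesets, and 2 differed between CSS12 and BcA86, against 11.9% of all probesets. Over these 9 the log2 fold change ran from −0.34 to 0.56 in BcA86 and from −0.75 to 0.29 in CSS12. *Ly6g*, the direct neighbour of *Ly6a2* among the measured genes, set both the highest value in BcA86 and the lowest in CSS12. It read 6.05, 7.32 and 5.40 in C57BL/6J, 6.76, 7.15 and 6.55 in BcA86, and 5.75, 5.28 and 5.48 in CSS12. The difference between CSS12 and BcA86 was −1.31 (standard error 0.43, adjusted p = 0.251 from limma), and it was the only one of the 9 that Cyber-T passed in any comparison, at an adjusted p of 8.51e-06. Of 10 measured genes on either side of the cluster, 0 passed with limma in any comparison, and values against C57BL/6J ran from −0.52 for *Slurp1*, a secreted Ly6 protein, in BcA86 to 0.34 for *Zc3h3* in CSS12. Cyber-T passed *Slurp1* in BcA86 and *Gpihbp1* in CSS12. None of the measured genes around *Ly6a2* and *Ly6d* fell as far as either did in the same strain, as the plot in chromosome order shows. On the side of *Ly6d*, *Slurp1*, *Lypd2* at −0.47 and *Slurp2* at −0.23 were also lower in BcA86, and *Lynx1* was at −0.06. Several genes within the cluster, such as *Gml* and *Cyp11b2* with means of 4.93 and 4.55 in C57BL/6J, lay below the array medians. A fall could hardly show there, and a difference shared along the region was not tested.

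**Figure D4:**
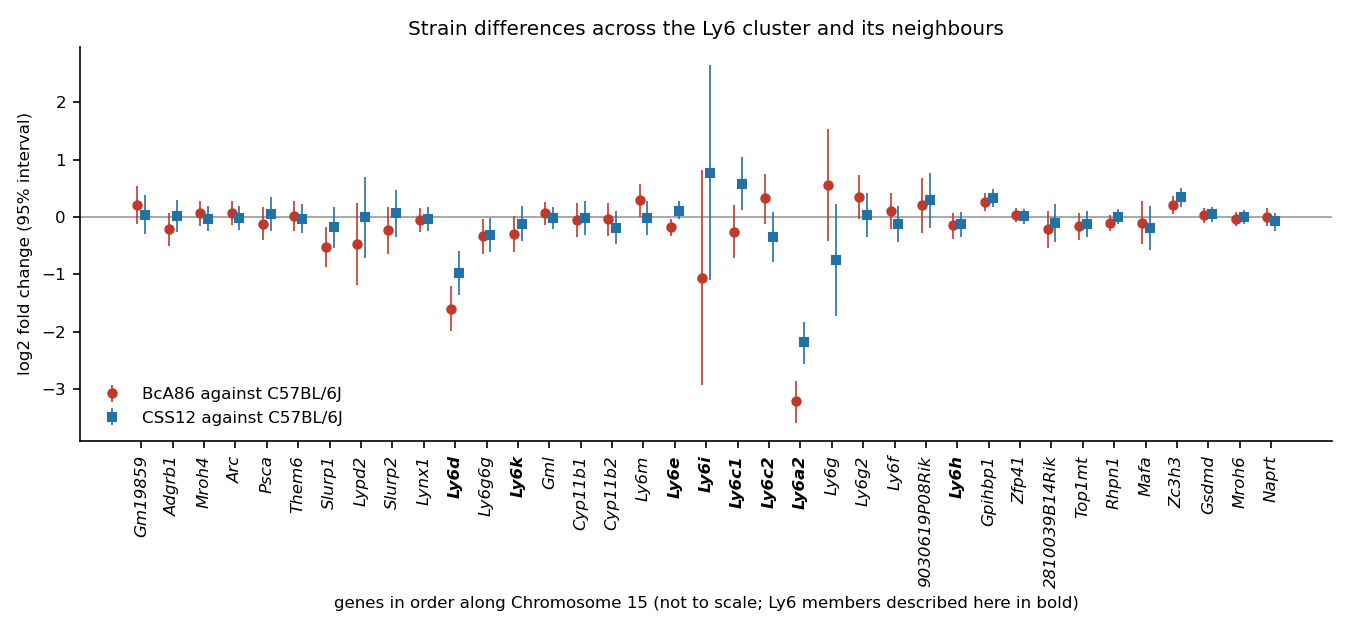
Log2 fold change with its 95% interval (vertical axis) of 37 measured genes in their order on Chromosome 15, for BcA86 (red circles) and CSS12 (blue squares) against C57BL/6J, with the 8 members in bold. *Ly6a2* at −3.22 and −2.19 and *Ly6d* at −1.60 and −0.98 lie below 0 in both strains, while the interval of *Ly6i* is the widest.

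Beyond the cluster, 28 of 32 other genes with Ly6 or uPAR domains were measured. *Plaur*, the urokinase receptor, was lower by −0.53 in BcA86 (standard error 0.06, adjusted p = 0.0166 from limma) and by −0.39 in the hyperresponsive strains together (adjusted p = 0.041), and it was the only one that passed in any comparison. In CSS12 it had −0.25 (adjusted p = 0.239). *Gpihbp1*, which holds lipoprotein lipase on capillary endothelium and lies next to *Ly6h* among the measured genes, read 9.99, 10.18 and 10.08 in C57BL/6J, 10.28, 10.39 and 10.36 in BcA86, and 10.45, 10.36 and 10.44 in CSS12. Every array of the hyperresponsive strains lay above every C57BL/6J array, at 0.30 for both together (standard error 0.06, adjusted p = 0.131), which did not pass. The median over the 28 genes was −0.10 in BcA86, −0.02 in CSS12 and −0.04 for both together.

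Enzymes that build the GPI anchor and fix it to proteins were measured for 25 of 28 genes. With limma 0 passed in any comparison, and with Cyber-T 0 passed. At an unadjusted p under 0.05, 2 were lower in BcA86, 2 in CSS12 and 1 for both together, and 1 was higher in CSS12 against BcA86. These shares lay below those of all probesets, 10.4%, 10.7%, 9.7% and 11.9%. *Pigh* and *Dpm3*, subunits of early enzymes of anchor synthesis, had −0.15 each for both together, and the list's median was −0.06.

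Interferon response genes, of which 26 of 30 were measured, were set beside the members because several Ly6 genes respond to interferon. With limma 0 passed in any comparison. At an unadjusted p under 0.05, 5 were higher and 1 lower for the hyperresponsive strains together, against 9.7% of all probesets, and Cyber-T passed 2 as higher, against 0.936%. In CSS12 against C57BL/6J 6 were higher and 1 lower, against 10.7%, and Cyber-T passed 5 as higher, against 2.36%. Of this list, *Gbp4* and *Iigp1*, interferon-induced GTPases, changed most for the hyperresponsive strains together, at 0.70 (adjusted p = 0.318) and 0.65 (adjusted p = 0.173). What interferon contributes to the values of the members was not tested. The mean level of the list was 7.86 to 7.97 in C57BL/6J and 7.95 to 7.98 in BcA86. In CSS12 it was 7.99 to 8.33, and the highest of these was replicate 2, the mouse with high *Ly6i*.

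Neutrophil markers separated the hyperresponsive strains, beside *Ly6g*. Of 15 measured, 0 passed against C57BL/6J in either strain with limma, and 2 were lower in CSS12 than in BcA86. These were *Csf3r*, the receptor of granulocyte colony-stimulating factor, at −1.34 (standard error 0.20, adjusted p = 0.0343), and *Ngp*, a granule protein, at −0.56 (adjusted p = 0.0304). At an unadjusted p under 0.05, 10 were lower in CSS12 than in BcA86 and 9 lower than in C57BL/6J, with medians of −1.08 and −0.85, against 11.9% and 10.7% of all probesets, and Cyber-T passed 10 and 8, against 5.1% and 2.36%. In BcA86 against C57BL/6J 1 was higher and 0 lower at that level. The mean level of the list was 6.95 to 7.79 in C57BL/6J, 7.42 to 7.58 in BcA86 and 6.45 to 6.75 in CSS12. *Ly6c2* was lowest in CSS12 as well, and *Ly6a2* and *Ly6d* were lowest in BcA86. The part of neutrophils in the values of these members was not tested. Of 16 T and NK cell markers, 0 passed in any comparison with limma. For both strains together 2 were higher at an unadjusted p under 0.05, near the 9.7% of all probesets. Cyber-T passed 1 there, against 0.936%.

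The genes most like *Ly6a2* and *Ly6d* were taken from 1120 probesets of 1 gene that ranged over at least 1 on the log2 scale, by Pearson correlation over the 9 arrays. The nearest to both was *Ahnak2*, a large scaffold-like protein encoded on Chromosome 12, at 0.97 with *Ly6a2* and 0.98 with *Ly6d*. Its mean was 8.37 ± 0.21 (SD, n = 3) for C57BL/6J, 7.13 ± 0.15 for BcA86 and 7.60 ± 0.10 for CSS12. Within strains its correlation was 0.26 with *Ly6a2* and 0.65 with *Ly6d*. *Hspa1a*, an inducible heat shock chaperone, was at 0.94 with *Ly6a2* and 0.92 with *Ly6d*, with means of 11.10 ± 0.50, 8.32 ± 0.43 and 8.86 ± 0.09. *Tubb4a*, a tubulin, was at 0.93 with *Ly6a2*, and *Npy1r*, a receptor of neuropeptide Y, at 0.93 with *Ly6d*. The most opposed gene was *Ackr2*, a scavenging receptor of chemokines, at −0.97 with *Ly6a2* and −0.94 with *Ly6d*, with means of 9.25 ± 0.15, 10.12 ± 0.09 and 9.85 ± 0.09. *Nrcam*, a neuronal cell adhesion molecule of Chromosome 12, was at −0.96 and −0.92, *Fam124b* at −0.94 with *Ly6a2* and *Lox*, the collagen cross-linking enzyme, at −0.93 with *Ly6d*. By their means all of these had CSS12 between the others, an order that follows from picking them by correlation. For some, such as *Hspa1a* and *Lox*, the CSS12 and BcA86 arrays overlapped. Within strains *Hspa1a* was at −0.42 with *Ly6a2* and 0.18 with *Ly6d*. The 9 points again share 3 strains.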

How the data were processed

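Total lung RNA of 9 mice was extracted at the same time with a column kit and hybridised to Affymetrix Gene 2.0 ST arrays, 1 per mouse. Raw data had been normalised with FlexArray by the authors, using robust multiarray averaging (RMA), and the values as deposited are log2 expression per probeset and array. The sources used here give neither the software version nor the build of the probe design. The values were used without another normalisation or filter. Symbols come from the platform annotation, in which 23521 of 41345 probesets carry 1 symbol, 1820 several and 16004 none. Gene order, chromosomes and promoter windows come from RefSeq (GRCm38.p6), used for names, order and sequence only.

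Strain differences were fitted with limma 3.58.1 under R 4.3.3 (lmFit and eBayes, 1 fit of 9 arrays, 6 residual degrees of freedom, prior degrees of freedom 2.12, no block), with Benjamini-Hochberg adjustment over all probesets. Each hyperresponsive strain, and the mean of both, was set against C57BL/6J, and CSS12 was set against BcA86. The alternatives were the methods' Cyber-T (window 101, prior weight 10), trended and robust variances, a fit of only the strains compared, a block for the replicate number, median centring, array weights, the dimmer probesets left out (mean under 6.10, the median), each array left out, and the other *Ly6k* probeset. Code was tested on simulated data. Named are all members, list genes and neighbours that passed or, for a list in which none did, those with the largest change for both strains together, the 3 genes most and least like a passing member, and a few genes picked once their values were known, as stated there. The members, gene lists and tests were chosen with earlier results of these data known. The labels number the mice of each strain as separate samples, without naming litters. Protein sequences were not analysed here.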

Additional observations from a re-analysis of the deposited data

Results flagged for a closer look

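*Ly6a2* was taken for a closer look because the effects of the hyperresponsive strains against the same C57BL/6J arrays differed from each other by test. It was 1.03 higher on the log2 scale in CSS12 than in BcA86 (standard error 0.16, adjusted p = 0.0353 from limma), while both lay below C57BL/6J on every array. The adjusted p of this difference was above 0.05 in 7 of 9 fits with an array left out and reached 0.126 without CSS12 replicate 3. Its size stayed between 0.95 and 1.15 in those fits. The family was chosen by *Ly6a2* on these same arrays, so the test of this difference is not independent of that choice.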

How the results depend on the processing

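*Ly6d* passed with limma in BcA86 against C57BL/6J in every fit with an array left out, and no member beside *Ly6a2* did so in CSS12 against C57BL/6J. For CSS12 against BcA86 the count ran from 0 to 1 in those fits, and for the hyperresponsive strains together from 1 to 2. Among the other settings the count in CSS12 against C57BL/6J was 3 with Cyber-T and 2 with the dimmer probesets left out. In CSS12 against BcA86 it was 6 with Cyber-T, 2 with trended and robust variances, 2 with the dimmer probesets left out, 0 in a fit of the compared strains alone and 0 with the replicate block. For the hyperresponsive strains together it was 1 with the compared strains alone, where *Ly6d* had an adjusted p of 0.128. With the replicate block the *Ly6a2* difference between CSS12 and BcA86 had an adjusted p of 0.0917, and no other call of a member changed. Nothing in the labels pairs the numbers. Same-numbered arrays had residual correlations from −0.11 to 0.15, 7 of 9 above 0, and an array's best match in another strain had its own number in 12 of 18 cases where 6 would be expected, a hint from the data and not from the design. Directions turned only for members that did not pass. The other *Ly6k* probeset gave 0.10 in BcA86, 0.32 in CSS12 and 0.21 for both together. *Ly6c2* had 0.04 for both together with array weights and −0.09 to 0.09 with an array left out, *Ly6c1* −0.02 to 0.27, and *Ly6i* −0.67 to 0.13, or −0.28 to 1.31 in CSS12. Of the member values, 208 kept direction and side of the threshold in the other settings, 12 newly passed, 3 no longer passed and 5 reversed, among them *Ly6i* in CSS12 at −0.28 with Cyber-T without CSS12 replicate 2. With an array left out, 268 kept both, 12 no longer passed and 8 reversed. *Ly6h* was left out with the dimmer probesets and has no value there. The causes of these changes were not tested. RMA values carry no counts or background flags, so whether a low member such as *Ly6h* was detected is unknown.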
